A study of Mus musculus with 6 samples.

Results

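The AP-2 family is a group of 5 mouse transcription factor genes, Tfap2a, Tfap2b, Tfap2c, Tfap2d and Tfap2e. Its members were taken as every probe set with exactly 1 gene symbol in the platform annotation and a family gene as that symbol, which gave 10 of the 45101 probe sets on the array and 5 of the 18194 genes tested. Tfap2a had 3 sets, Tfap2b 2, Tfap2c 3, and Tfap2d and Tfap2e 1 each. AP-2 proteins bind DNA as dimers, through a basic helix-span-helix domain near the C-terminus, at GC-rich palindromes. Tfap2a and Tfap2b act in both the neural crest and the overlying ectoderm of the face, and loss of Tfap2a in the mouse leaves the face and body wall open. Tfap2c is best known from trophoblast, germ cells and surface ectoderm, Tfap2d from midbrain and retina, and Tfap2e from the olfactory system.

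RNA came from branchial arch 1, the jaw-forming arch, of mouse embryos at embryonic day 11.5, with 1 Affymetrix array per sample and, per the sample descriptions, a single arch from each of 6 embryos. All 6 embryos carried lox-flanked Ezh2 alleles (Ezh2lox/lox), Ezh2 being the catalytic subunit of the Polycomb repressive complex PRC2. The 3 embryos labelled mutant also carried Wnt1Cre, and the 3 labelled control did not. Wnt1-driven Cre acts in the neural crest lineage, so that arch ectoderm, mesodermal muscle precursors, endothelium and blood keep their intact alleles, and the ectoderm is itself a source of AP-2 transcripts. The design compares arches with and without Ezh2 in the crest lineage. Differences are given in log2 units as the labelled-mutant mean minus the labelled-control mean, and means carry ± SD over n = 3 arrays.

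The labels could not be checked through Ezh2, whose only probe set stood at 11.63 ± 0.15 for label control and 11.66 ± 0.01 for label mutant, because it is not known here whether its probes lie in the deleted part. Sex and label cannot be told apart, since the female transcript Xist was at 5.62 ± 0.15 in arches labelled control and at 13.03 ± 0.10 in those labelled mutant. Hoxa2, a gene that is silent in the normal jaw arch and that PRC2 is known to repress, was high in the library group labelled control, at 7.34 ± 0.31, and low in the one labelled mutant, at 4.25 ± 0.01. Groups are therefore called by their labels throughout. Whether the labels are exchanged is not settled by these values, and an exchange would turn the sign of every difference given here. As to tissue, 12 of 13 crest mesenchyme markers and 17 of 20 ectoderm and epithelium markers had mean signals above the array median of 5.81. So did 11579 of all 18194 genes, 6 of 7 endothelial, 7 of 9 skeletal muscle and 5 of 6 erythroid markers. Markers of both layers were thus read, but these counts do not measure how much of each layer the dissected arches held.

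None of the 5 AP-2 genes differed between the groups beyond the spread among embryos. Tfap2a, Tfap2b and Tfap2c were above the array median on all 6 arrays, and Tfap2d and Tfap2e were below the 25th percentile of 4.33 on all 6. With limma, 0 of 5 genes passed a Benjamini-Hochberg adjusted p of 0.05, 0 of 5 had an unadjusted p under 0.05, and the exact permutation test, whose smallest p with 3 arrays against 3 is 0.1, could not pass for any gene. Of all 18194 genes tested 5.53% passed, and 3405 had an unadjusted p under 0.05 (limma). Neither count of 0 among 5 genes stands out from that background. The 2 groups overlapped for all 5 genes, whereas 24.9% of all genes did not overlap. The median difference of the 5 genes was -0.02, against 0.02 for all genes.

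**Figure D1:**
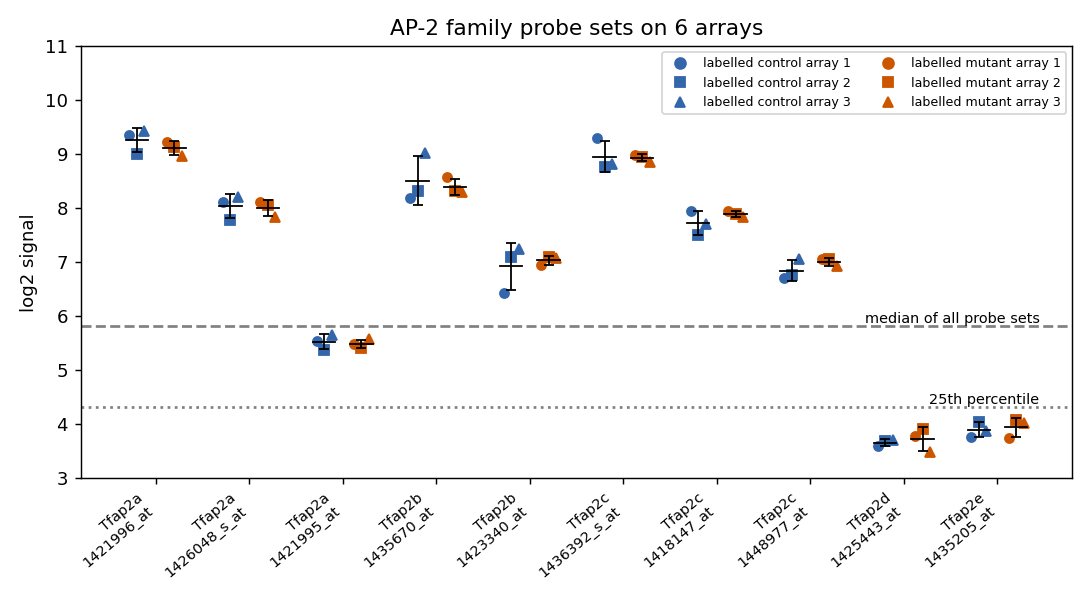
Log2 signal (vertical axis) of the 10 AP-2 probe sets (horizontal axis) on the 3 labelled-control arrays (blue) and the 3 labelled-mutant arrays (orange), with the mean and SD of each group in black and the array's 25th percentile and median as grey lines. The groups overlap in every set, and the Tfap2d and Tfap2e sets lie below the 25th percentile.

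Tfap2a, the founding member and a regulator of crest induction and facial closure, was read by its brightest set (1421996_at) at 9.35, 9.00 and 9.42 on labelled-control arrays 1 to 3 and at 9.21, 9.14 and 8.97 on labelled-mutant arrays 1 to 3. Labelled-control array 2 and labelled-mutant array 3 were the low ones, so that the ranges overlapped. The means were 9.26 ± 0.22 and 9.11 ± 0.13, which differ by -0.15 (standard error 0.12; limma, Benjamini-Hochberg adjusted p = 0.577; exact two-sided permutation p = 0.4). The 95% interval ran from -0.43 to 0.13, which bounds a fall in this signal at 1.35-fold and a rise at 1.09-fold. The other two Tfap2a sets gave -0.03 (1426048_s_at) and -0.04 (1421995_at), so that all 3 lay on the low side and every 95% interval included 0. The set 1426048_s_at was again low on labelled-control array 2 and labelled-mutant array 3, at 7.78 and 7.84, against 8.06 to 8.20 on the remaining arrays. The set 1421995_at lay between 5.38 and 5.66, under the array median on every array, and was also lowest on labelled-control array 2.

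Tfap2b, which overlaps with Tfap2a in crest and ectoderm, read 8.20, 8.31 and 9.03 on the labelled-control and 8.57, 8.32 and 8.30 on the labelled-mutant arrays (1435670_at). A single array, labelled-control array 3, stood above the rest, and the labelled-mutant values lay inside the labelled-control range. The difference was -0.12 with a standard error of 0.20 and a 95% interval of -0.57 to 0.34 (limma, Benjamini-Hochberg adjusted p = 0.822; exact two-sided permutation p = 0.9), the widest interval in the family. Without labelled-control array 3 the difference was 0.14 (limma, Benjamini-Hochberg adjusted p = 0.516), the opposite sign. The second set, 1423340_at, gave 0.11, with 6.43, 7.11 and 7.24 on the labelled-control and 6.94, 7.10 and 7.08 on the labelled-mutant arrays. Both sets were highest on labelled-control array 3 and lowest on labelled-control array 1, yet the signs of their group differences were opposite.

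Tfap2c, a gene of surface ectoderm and of early lineages, read 9.29, 8.76 and 8.81 on the labelled-control and 8.99, 8.95 and 8.86 on the labelled-mutant arrays (1436392_s_at). Labelled-control array 1 was the highest of the 6 and labelled-control array 2 the lowest. The difference was -0.02 with a standard error of 0.14 and a 95% interval of -0.33 to 0.29 (limma, Benjamini-Hochberg adjusted p = 0.960). Without labelled-control array 1 it was 0.15 (adjusted p = 0.311). The suffix _s_at marks a set whose probes match more than 1 transcript in the design of the array; whether these include another AP-2 gene was not determined here. The other two Tfap2c sets, which do not carry that suffix, gave 0.17 (1418147_at) and 0.17 (1448977_at), with limma adjusted p over all probe sets of 0.593 and 0.571. In 1418147_at the labelled-mutant arrays read 7.85 to 7.95 and the labelled-control arrays 7.50 to 7.95, so that the labelled-mutant range lay at the top of the labelled-control one.

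Tfap2d, a gene of midbrain and retina, read 3.59, 3.68 and 3.71 on the labelled-control and 3.79, 3.91 and 3.48 on the labelled-mutant arrays. Tfap2e, a gene of olfactory neurons, read 3.77, 4.04 and 3.89 on the labelled-control and 3.75, 4.08 and 4.02 on the labelled-mutant arrays. The differences were 0.06 and 0.05, and both standard errors were 0.11 (limma, Benjamini-Hochberg adjusted p = 0.828 and 0.856). Neither gene read above the low end of the scale in any embryo of either label. At such signals these values hold mostly background, so that they bound a change in the signal but cannot tell whether transcripts of low abundance differed.

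Over the 10 probe sets, 0 passed in the fit over all 45101 sets (limma, Benjamini-Hochberg), 0 had an unadjusted p under 0.05, and 0 had groups that did not overlap. In that fit 2.14% of all sets passed and 20.4% did not overlap. At the level of the gene, 3405 of 18194 genes had an unadjusted p under 0.05 (limma). The signs were mixed, with 5 sets on the high side and 5 on the low side in arches labelled mutant. No 95% interval at the level of the gene reached a doubling or a halving of signal, the widest bound being a 1.48-fold fall of Tfap2b. In whole arches a lower share of the cells that express a gene and less RNA per cell cannot be told apart, nor can opposite changes in ectoderm and mesenchyme that cancel.

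**Figure D2:**
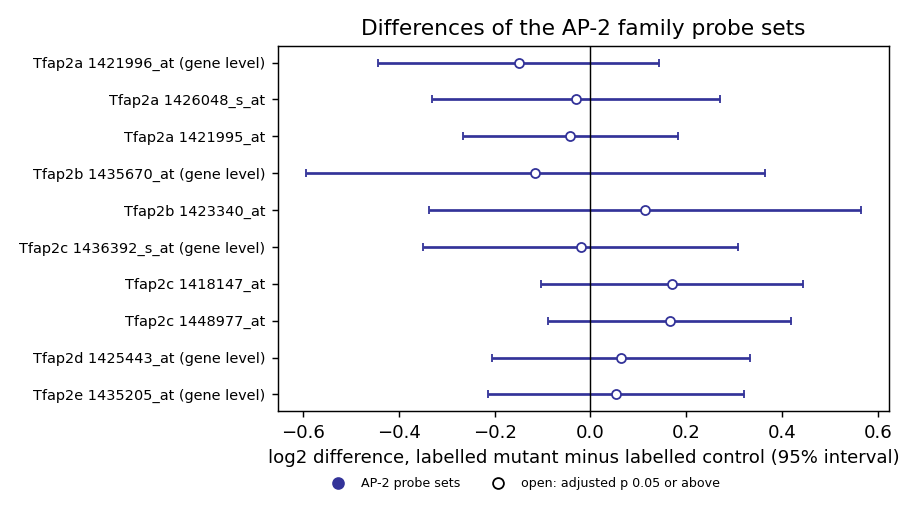
Log2 difference between labelled-mutant and labelled-control arches (horizontal axis) for each AP-2 probe set (rows), with the 95% interval from limma's fit over all probe sets. Every interval includes 0, and the sets of Tfap2b and of Tfap2c fall on both sides of it.

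The 3 AP-2 genes above the array median lay on the same side of their own means on 3 of the 6 arrays; whether they vary together was not tested. On labelled-control array 1, Tfap2a and Tfap2c lay 0.17 and 0.35 above their own means over the 6 arrays, and Tfap2b read -0.26 relative to its mean. On labelled-control array 3, Tfap2a and Tfap2b lay 0.24 and 0.57 above their means, and Tfap2c read -0.13. On labelled-control array 2 all 3 were below their means, at -0.18, -0.14 and -0.19. On labelled-mutant array 1 all 3 were above, at 0.03, 0.11 and 0.05, and on labelled-mutant array 3 all 3 were below, at -0.22, -0.15 and -0.08. On labelled-mutant array 2 they read -0.04, -0.14 and 0.01. The labelled-mutant arrays were closer together, with SDs of 0.13, 0.15 and 0.07 for Tfap2a, Tfap2b and Tfap2c against 0.22, 0.45 and 0.29 in the labelled-control arches; the difference in spread was not tested.

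Ectoderm markers varied among the same arrays. The 17 ectoderm and epithelium markers above the array median had a median deviation of 0.31 on labelled-control array 3, of -0.24 and -0.25 on labelled-control arrays 1 and 2, and of 0.11, 0.05 and 0.03 on the labelled-mutant arrays. Of these 17 markers 11 (64.7%) were highest on labelled-control array 3, where 27.0% of the 11579 genes above the array median were. Tfap2a and Tfap2b were also highest on that array, and Tfap2c was not. The summed linear signal of all 20 measured markers ran from 6232 to 9949 over the arrays labelled control and from 7602 to 7999.7 over those labelled mutant. The corresponding deviations of 12 crest mesenchyme markers stayed between -0.21 and 0.13. The part of ectoderm content in the AP-2 values was not tested.

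**Figure D3:**
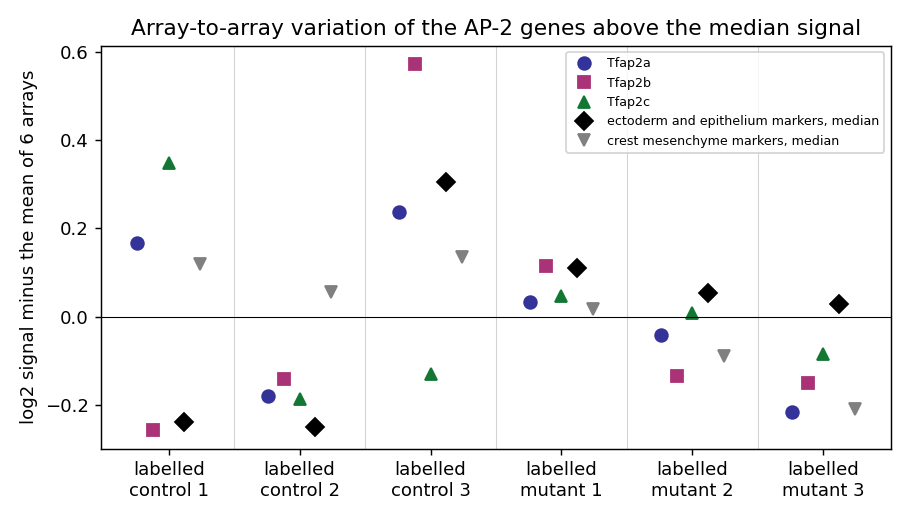
Log2 signal of Tfap2a, Tfap2b and Tfap2c minus each gene's mean over 6 arrays (vertical axis) on each array (horizontal axis), beside the median deviation of 17 ectoderm and epithelium markers and of 12 crest mesenchyme markers. Labelled-control array 3 holds the highest Tfap2b value (0.57) and the highest ectoderm median (0.31), and labelled-control array 1 the highest Tfap2c value (0.35).

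The genes whose profiles over the 6 arrays lay closest to those of the AP-2 genes were found among 11182 named genes above the array median, by the root mean square distance between profiles centred on each gene's mean. For Tfap2b they were Dsc2, a desmosomal cadherin gene, at 0.03, Perp, a gene of epithelial desmosomes and 1 of the ectoderm markers above, at 0.04, and Dnajb3, a chaperone gene, at 0.04. Perp read 9.26, 9.49 and 10.10 on the labelled-control and 9.67, 9.45 and 9.45 on the labelled-mutant arrays. Its peak on labelled-control array 3 follows from its choice by closeness to Tfap2b. For Tfap2a they were Ccdc68 (0.03), Msrb3 (0.04) and Fbxo7 (0.05), and for Tfap2c Hagh (0.04), Ncaph (0.04) and Cxcl16 (0.05). None of these 9 genes passed (limma, Benjamini-Hochberg adjusted p from 0.314 to 0.952). Their selection all but fixed this, since a profile close to that of an AP-2 gene has a similar group difference. With 6 arrays many profiles are alike, and the distances are descriptions.

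AP-2 proteins recruit CBP/p300-interacting coactivators of the Cited family and are held in check by the KCTD proteins Kctd1 and Kctd15. Of 8 such cofactors and inhibitors measured, 1 rose, 1 fell and 6 did not pass. The median difference was 0.07. Among all genes 1.23% passed as higher and 4.3% as lower. Cited1 rose by 0.90 with a standard error of 0.12, from 9.37, 9.55 and 9.73 on the labelled-control to 10.27, 10.62 and 10.45 on the labelled-mutant arrays (limma, Benjamini-Hochberg adjusted p = 0.0040). Its groups did not overlap. Cited1 is X-linked, and the labelled-mutant arches are those with high Xist, so that its rise moves with the sex pattern as well as with the label. It passed in 14 of 15 alternatives (adjusted p from 0.0014 to 0.0573) and missed the threshold with floored signals.

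Cited2, a coactivator whose loss perturbs AP-2-dependent development, had a difference of 0.54 that did not pass (limma, Benjamini-Hochberg adjusted p = 0.0683), although its values of 9.18, 9.51 and 8.98 in the labelled-control arches lay below those of 9.86, 9.85 and 9.58 in the labelled-mutant arches. Cited4, with 6.24 ± 0.64 and 6.18 ± 0.15, differed by -0.06. Crebbp and Ep300, the histone acetyltransferases these adaptors bind, differed by -0.03 and -0.06, and the oxidoreductase gene Wwox by 0.28 (adjusted p = 0.0708).

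Kctd1 fell by 0.54 with a standard error of 0.11, its labelled-control arrays reading 9.67, 10.01 and 9.93 and its labelled-mutant arrays 9.45, 9.25 and 9.28 (limma, Benjamini-Hochberg adjusted p = 0.0231). Its second set, 1425104_at, fell by 0.53 (limma, adjusted p over all probe sets = 0.0224), and the groups did not overlap in either set. In that fit the brightest set did not pass (limma, adjusted p = 0.0563). The gene-level call was lost in 7 of 15 alternatives, floored signals among them (limma, adjusted p = 0.0989). It was also lost without labelled-control arrays 2 or 3 and without labelled-mutant arrays 2 or 3 (adjusted p = 0.0873, 0.0607, 0.106 and 0.108). Kctd15, the paralogue that blocks AP-2 activity in crest formation, differed by 0.18 and did not pass (adjusted p = 0.324).

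**Figure D4:**
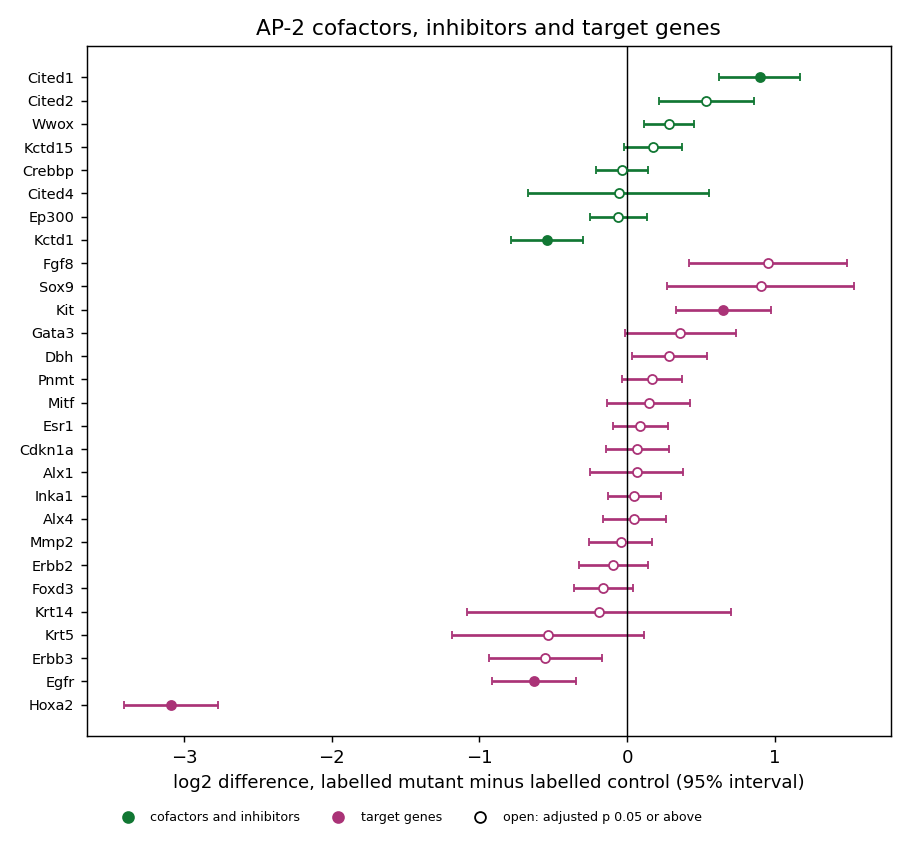
Log2 difference between labelled-mutant and labelled-control arches (horizontal axis) with 95% intervals for 8 AP-2 cofactors and inhibitors (green) and 20 AP-2 target genes (purple). Filled points (Cited1, Kctd1, Kit, Egfr and Hoxa2) passed the adjusted threshold, and the open points did not.

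Of 20 measured genes that AP-2 factors are known to bind or regulate in 1 tissue or another, 1 rose, 2 fell and 17 did not pass, beside 1.23% higher and 4.3% lower among all genes, with a median difference of 0.06. Kit, the receptor tyrosine kinase of melanoblasts and other migratory cells, rose by 0.65 with a standard error of 0.14, the labelled-control arrays reading 7.92, 7.78 and 8.23 and the labelled-mutant arrays 8.38, 8.78 and 8.71 (limma, Benjamini-Hochberg adjusted p = 0.0337). The groups did not overlap. The Kit call was lost in 7 of 15 alternatives. It was lost without labelled-control arrays 1 or 2 and without labelled-mutant arrays 2 or 3 (limma, adjusted p = 0.0868, 0.123, 0.138 and 0.142). Floored signals, the mean of its sets and all sets adjusted together also lost it (limma, adjusted p = 0.142, 0.0716 and 0.0779). The second Kit set, near 4.5, gave 0.15. Among the other markers of melanoblasts and glia, Sox10 and Ednrb fell by 0.66 and 0.91 in their brightest sets. Those calls were lost in 9 and 6 of 15 alternatives (limma, Benjamini-Hochberg adjusted p up to 0.38 and 0.175). The other Sox10 sets gave 0.05 and 0.12, and the other Ednrb sets -0.40 and -0.15. Mitf and Dct differed by 0.15 and 0.30, and Fabp7, Erbb3 and Foxd3 by -0.72, -0.55 and -0.16, and none of these passed. The groups did not overlap for Dct and Erbb3, as for 24.9% of all genes. The summed linear signal of the 8 measured glia and melanoblast markers was 1221 to 1967 over the arrays labelled control and 1204 to 1249.8 over those labelled mutant.

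The Kit promoter is shown because Kit alone rose among these target genes and its start region holds the AP-2 consensus. The motif searched was GCCNNNGGC, which is its own reverse complement, in windows of 250 bases before to 50 after each start in the RefSeq table of GRCm38.p6. The match begins 134 bases before the start, at chr5:75574833-75574881 on the plus strand with 20 bases on each side, and capitals mark the consensus.
Kit: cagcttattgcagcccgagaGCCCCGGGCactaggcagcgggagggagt
Of all 32851 windows 16.6% hold this motif, and 18.5% of the 27025 genes with a window hold it in any of theirs. It occurred in 0 of 7 windows of Tfap2a, Tfap2b, Tfap2d and Tfap2e; Tfap2c was not matched. It occurred in the windows of 4 of 13 matched target genes (Kit, Mitf, Esr1 and Gata3) and of 3 of 6 matched cofactors (Cited1, Crebbp and Kctd15). Counted by window, it occurred in 5 of 18 for target genes and in 4 of 10 for cofactors. Whether these shares differ from those of all genes or all windows was not tested. A match describes letters in a window and is not a measured binding site.

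Egfr, the epidermal growth factor receptor gene, fell by 0.63 in its brightest set, which read 7.98, 8.14 and 8.01 on the labelled-control and 7.70, 7.24 and 7.29 on the labelled-mutant arrays (limma, Benjamini-Hochberg adjusted p = 0.0233). Another 6 sets of Egfr gave differences from -0.50 to 0.20, and with the mean of its sets the difference was -0.08 (adjusted p = 0.639). Leaving out any of labelled-control arrays 1, 2 or 3 or labelled-mutant arrays 2 or 3 also lost the call (adjusted p = 0.0519, 0.0984, 0.0506, 0.0988 and 0.109). Hoxa2, whose crest enhancer binds AP-2, fell by 3.09 (limma, Benjamini-Hochberg adjusted p = 8.94e-06), and all 14 alternatives that tested it kept the call.

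Target genes that did not pass ran from -0.55 for Erbb3 to 0.96 for Fgf8. Fgf8, a signal of the oral ectoderm, read 6.01, 5.86 and 6.81 on the labelled-control and 6.94, 7.44 and 7.17 on the labelled-mutant arrays, without overlap (limma, Benjamini-Hochberg adjusted p = 0.0546). The keratin genes Krt5 and Krt14, targets in surface ectoderm, differed by -0.53 and -0.19 with standard errors of 0.29 and 0.39. Inka1, named for its induction by AP-2 in neural crest, differed by 0.05 at 9.43 ± 0.08 and 9.48 ± 0.05. The midface regulators Alx1 and Alx4 differed by 0.06 and 0.05.

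The factors that work beside AP-2 at the neural plate border and in early crest moved in both directions. Of 17 measured, 6 rose (Gbx2, Dlx5, Msx1, Msx2, Snai1 and Dlx3), 4 fell (Zic1, Pax7, Sox10 and Ets1) and 7 did not pass. The median difference was 0.06. Of all genes tested, 1.23% passed as higher and 4.3% as lower. The largest fall of the list was that of Zic1, from 10.80 ± 0.29 to 3.585 ± 0.05. Its largest rise was that of Gbx2, from 5.11 ± 0.05 to 7.84 ± 0.13 (limma, Benjamini-Hochberg adjusted p = 1.84e-08 and 9.3e-07). Zic1 and Gbx2 kept their calls in 15 of 15 alternatives. Msx1, a homeobox gene of border and distal arch, rose by 1.15 from 9.48 ± 0.34 to 10.63 ± 0.10, and Pax7, a paired-box gene of border and nasal crest, fell by 0.97, its means being 5.91 ± 0.24 and 4.94 ± 0.25 (limma, Benjamini-Hochberg adjusted p = 0.0042 and 0.0085). Both calls were lost with floored signals (adjusted p = 0.0682 and 0.0862; over all alternatives 0.00029 to 0.0682 for Msx1 and 0.0047 to 0.0862 for Pax7). Snai1 and Sox10 also lost their calls with floored signals (limma, Benjamini-Hochberg adjusted p = 0.0767 and 0.147). The list was chosen with earlier results known, and its share of calls was not tested against that of the AP-2 genes.

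Of 20 ectoderm and epithelium markers 1 rose, 0 fell and 19 did not pass, with a median difference of 0.08. The groups did not overlap for 3 (Krt8, Krt15 and Krt18). Beside these and the marker counts that follow, 1.23% of all genes passed as higher, 4.3% as lower, and 24.9% did not overlap. Leaving out 1 array at a time moved the count of rises from 1 to between 0 and 6, the 6 being found without labelled-control array 3. Krt8, a simple-epithelium keratin gene, rose by 0.52 (limma, Benjamini-Hochberg adjusted p = 0.0461) and lost its call in 9 of 15 alternatives (adjusted p from 0.0207 to 0.181). Krt15 and Krt18 had differences of -1.12 and 0.32 that did not pass. Of 13 crest mesenchyme markers 2 rose (Dlx2 and Msx1) and 4 fell, including Col3a1 by 0.64 and Pdgfra by 0.63. Their summed linear signal was 35898 to 39832 over the arrays labelled control and 29053 to 32165 over those labelled mutant. Such a sum is weighted to the brightest genes, Col3a1 (13.47 ± 0.06 and 12.83 ± 0.09) above all, and does not measure tissue content. The median difference of the 13 crest mesenchyme markers was -0.20. Of the other cell types, 5 of 13 neuron markers fell (Nefl, Nefm and Isl1 among them), as did 3 of 9 muscle markers (Myog, Myod1 and Actc1), 1 of 6 erythroid markers (Slc4a1), 1 of 6 macrophage markers (Ptprc) and 2 of 8 glia and melanoblast markers. Of all genes 4.3% passed as lower. The second Isl1 set, 1422720_at, differed by -0.10. With the mean of its sets the Isl1 call was lost (limma, Benjamini-Hochberg adjusted p = 0.0608). The calls of Myod1, Slc4a1 and Ptprc were lost in 9 of 15 alternatives each and that of Actc1 in 12, single arrays left out among them. None of 7 endothelial markers passed with limma, and 0 had an unadjusted p under 0.05. Of all 18194 genes, 3405 had such an unadjusted p. The part of these cell types in the values of the AP-2 genes was not tested.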

How the data were processed

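The deposited table holds 1 log2 value per probe set and array, as processed by the authors. The log2 scale was inferred from the values (2.63 to 14.68), and the 6 arrays share the same quantiles. Background correction, summary method and software are unknown, being not given in the sources used here. A shared distribution hides any shift common to all genes. Precision is limited by the number of arrays.

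Of 45101 probe sets, 34958 had 1 gene symbol in the platform annotation, 932 several and 9211 none. Each of 18194 genes was represented by its brightest set. No filter on dim genes was applied. Groups were compared with limma 3.58.1 in R 4.3.3 (lmFit, eBayes, two-sided tests and no covariates). P-values were adjusted over all genes by the method of Benjamini and Hochberg, at a threshold of 0.05. Intervals are 95%. Single AP-2 genes were also tested with an exact permutation test. The procedure was tested on simulated data. The titles call the samples biological replicates, and the sample descriptions state that each embryo gave a single arch.

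The members, gene lists, named-gene rule and alternatives were chosen with earlier results of these data known. Named were all AP-2 sets, Ezh2, every gene past the threshold among cofactors, targets and crest regulators, the leading markers of each cell type by absolute moderated t, and the nearest profiles. Cited2, Cited4, Crebbp, Ep300, Wwox, Kctd15, Mitf, Dct, Fabp7, Erbb3, Foxd3, Fgf8, Krt5, Krt14, Inka1, Alx1, Alx4, Pdgfra and Xist are further examples, chosen after their values were seen. Alternatives were median centring, a further quantile normalization, a replicate block, a floor at the 20th percentile, only genes above the median, the mean of a gene's sets, all sets adjusted together, a trend and robust variance model and leaving out each array. An alternative using only sets outside the _s_at and _x_at classes was added after seeing the data.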

Additional observations from a re-analysis of the deposited data

How the results depend on the processing

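Of 78 alternative values for the 5 AP-2 genes, 0 passed the threshold and 8 had the opposite sign. The lowest Benjamini-Hochberg adjusted p with limma was 0.229. The 78 include the exact permutation test of each gene, which repeats the main difference and could not pass. They also include median centring and a further quantile normalization, which could change little because the arrays already share their quantiles. Leaving out 1 array at a time gave -0.28 to -0.07 for Tfap2a, -0.27 to 0.14 for Tfap2b, -0.12 to 0.15 for Tfap2c, -0.027 to 0.18 for Tfap2d and -0.012 to 0.15 for Tfap2e. Tfap2c also turned to 0.11 when its probe sets were averaged and to 0.17 with sets outside the shared classes. Over all genes, 224 were higher and 783 lower. With floored signals these counts were 99 and 230. Leaving out 1 array gave 63 to 244 higher and 372 to 777 lower, the lowest without labelled-mutant array 3. Both counts moved by over 1.5 times without labelled-control array 2 (89 and 462), labelled-mutant array 2 (72 and 409) or labelled-mutant array 3 (63 and 372), and the higher count alone without labelled-mutant array 1 (126). With a replicate block they were 112 and 545. The AP-2 differences cannot change under the block, because each number holds 1 array of each label. Same-numbered arrays had correlations of deviations of -0.21, -0.12 and -0.07, and arrays of unlike number had -0.08 to 0.19. Whether same-numbered embryos are littermates is not stated, and these values do not decide it. Kctd1 (0.0755) and Egfr (0.0542) missed the adjusted threshold under the block with limma. For the counts of 11 gene lists, 89 of 330 alternative values moved by over 1.5 times. The cause was not tested. Tfap2d and Tfap2e are limited by signals near background.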

Other observations

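The nearest measured protein-coding genes on either side of each AP-2 gene were taken from the gene order of RefSeq's GRCm38.p6 table. None passed (limma, Benjamini-Hochberg adjusted p from 0.232 to 0.982), where 5.53% of all genes did, so that this is near the background. Tfap2b and Tfap2d, already given above, are among these neighbours. Bmp7, a bone morphogenetic protein gene next to Tfap2c on chromosome 2, was at 8.52 ± 0.18 in arches labelled control and at 8.23 ± 0.15 in those labelled mutant, differing by -0.29 (n = 3 arrays per label; limma, adjusted p = 0.232). Tfap2b and Tfap2d are themselves neighbours on chromosome 1, with the first above the array median and the second below the 25th percentile on every array. Pkhd1 and Defb41, which flank that pair, read 3.26 ± 0.06 and 3.42 ± 0.08 in the labelled-control arches, also near the low end of the scale. Psmb2 and Ncdn, a proteasome and a neurochondrin gene on either side of Tfap2e on chromosome 4, read 11.61 ± 0.17 and 8.07 ± 0.12 in the labelled-control arches while Tfap2e itself read 3.90 ± 0.14. Slc35b3 and Gcnt2 beside Tfap2a differed by -0.14 and 0.04, and Fam209 beside Tfap2c by 0.12.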
